A study of Mus musculus with 3 samples.

Results

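The TAM receptors Mertk, Axl and Tyro3 and their ligands Gas6 and Pros1 were followed across the classes of liver nuclei and across the libraries. These 5 genes were chosen by family membership, not by a measured value, and all 5 were among the 32285 genes of the deposited matrices. TAM receptors are receptor tyrosine kinases on the surface of phagocytes and other cells. Gas6 and protein S, the product of Pros1, bind phosphatidylserine on dying cells with one end and a TAM receptor with the other, so that they bridge the dying cell to the cell that engulfs it. Both ligands need vitamin K-dependent carboxylation to bind phosphatidylserine, protein S also serves in the control of blood clotting, and in the liver MerTK is known from resident and fibrosis-associated macrophages.

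Single-nuclei RNA sequencing (sNuc-Seq) had been run on frozen liver of male C57BL/6 J mice. The ND group was 1 mouse on a normal diet, with no streptozocin (STZ). The STZ-HFHC group was 2 mice that had received 0.2 mg STZ under the skin at 3 days of age, which destroys pancreatic islets, and then from 4 weeks of age a diet rich in fat and cholesterol (HFHC). The age at harvest was not given for these libraries, no source states that animals were pooled, and each library was taken as 1 mouse. The label of the ND library carries a different code from those of the STZ-HFHC libraries, so diet, STZ and any difference in handling that the codes mark cannot be told apart. No group with STZ alone was among these samples.

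Of 30989 barcodes, 28336 were kept, 8494 in ND, and 8921 and 10921 in STZ-HFHC mice 1 and 2, with median UMI counts of 4068, 3015 and 4027. A UMI marks 1 captured RNA molecule. Pairs of libraries shared 20 to 27 barcode sequences. The nuclei were clustered without the 5 genes, and clusters were named from marker genes with the ending "-like". ND and STZ-HFHC nuclei of the macrophage-like, endothelial-like, stellate or fibroblast-like and hepatocyte-like classes lay mostly in different clusters. For example, 222 of the 239 ND macrophage-like nuclei were in cluster 20, in which 7 of 16 macrophage markers and 5 of 10 hepatocyte markers were raised, whereas 1336 of 1354 and 888 of 897 STZ-HFHC nuclei were in cluster 4, in which 12 of 16 macrophage markers were raised. Cluster 7 held 14 of 14 endothelial and 13 of 16 macrophage markers, stayed unnamed, and is given by its number.

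RNA of hepatocytes was found in every class. The summed level of 10 hepatocyte markers in macrophage-like nuclei was 89.9% of the level in hepatocyte-like nuclei in ND, and 49.1% and 65.9% in STZ-HFHC mice 1 and 2. In B cell-like and T or NK cell-like nuclei it was 88.3%, 66.1% and 78.5%. These lymphocyte-like nuclei, 264, 424 and 564 in number, stand beside each level below as the background. NK cells are known to express TAM receptors, so this background can hold RNA of their own beside RNA that was free in the suspension, and the 2 were not told apart. A level is given in CPM, the sum of a gene's UMIs over the nuclei of a class divided by all UMIs of the same nuclei and scaled as is usual for this unit, with an exact Poisson 95% interval that covers counting error only, not differences between mice.

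Mertk, the receptor with the most UMIs of the family, lies on mouse chromosome 2 (GRCm38, chr2:128698956-128802894, plus strand) and shares its span with the antisense gene Gm14011 and the snoRNA gene Gm23172. Axl lies at chr7:25757273-25788705 on the minus strand, with no other annotated gene in its span. The 250 bases before the RefSeq start of each of these 2 receptors are printed here because Mertk and Axl were the members that passed a test between the groups. Capitals mark the GC box GGGCGG on either strand, a motif bound by Sp-family factors.
Mertk promoter (RefSeq, GRCm38.p6, chr2:128698665-128698914, plus strand): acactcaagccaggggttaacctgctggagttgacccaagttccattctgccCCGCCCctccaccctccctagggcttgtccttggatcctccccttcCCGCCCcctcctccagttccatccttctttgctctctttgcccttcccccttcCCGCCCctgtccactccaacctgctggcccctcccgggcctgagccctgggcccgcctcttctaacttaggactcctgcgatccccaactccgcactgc
Axl promoter (RefSeq, GRCm38.p6, chr7:25788734-25788983, minus strand, written 5′ to 3′ along the gene): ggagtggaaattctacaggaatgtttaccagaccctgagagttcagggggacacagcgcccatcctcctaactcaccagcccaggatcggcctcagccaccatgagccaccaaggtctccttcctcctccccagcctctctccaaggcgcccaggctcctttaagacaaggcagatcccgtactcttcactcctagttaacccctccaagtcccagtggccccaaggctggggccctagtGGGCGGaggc
The Mertk window held 3 GC boxes and the Axl window 1, with G and C at 63.6% and 60% of bases. The windows of Tyro3, Gas6 and Pros1 held 3, 4 and 5, overlapping matches counted, and the motif was present in 32.7% of 32851 mouse promoters of the same length. The purine-rich core GAGGAA, which the myeloid factor PU.1 can bind, was read on both strands and was found once in the Axl window and in none of the other 4, against 23.3% of all promoters. The AP-1 motif TGACTCA, also read on both strands, was in none of the 5 windows and in 4.46% of all promoters. Such matches describe the letters of the window only.

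The ligand Gas6 was highest in 2 small classes, the mesothelial-like and the cholangiocyte-like nuclei. Gas6 lies at chr8:13465374-13494490 on the minus strand and shares its span with Tmem255b on the plus strand. In mesothelial-like nuclei, the cells of the liver capsule, its level was 97.3 CPM in ND (10 UMIs, 46.7 to 179), and 646 CPM (141 UMIs, 544 to 762) and 214 CPM (31 UMIs, 146 to 304) in STZ-HFHC mice 1 and 2. All 3 libraries were above their lymphocyte-like nuclei, at 7.90, 13.6 and 12.1 CPM, by 12.3-fold (4.50 to 34.3), 47.4-fold (26.3 to 93.9) and 17.7-fold (9.57 to 33.5).

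In cholangiocyte-like nuclei, from the bile duct epithelium, the Gas6 level was 102 CPM in ND (13 UMIs, 54.5 to 175), and 221 CPM (77 UMIs, 174 to 276) and 146 CPM (58 UMIs, 111 to 189) in STZ-HFHC mice 1 and 2. The ratio to the lymphocyte-like level was 16.2 (8.75 to 32.7) in STZ-HFHC 1, and in the other 2 libraries its intervals ran from 5.13 to 34.4 and from 6.99 to 21.7. Mesothelial-like and cholangiocyte-like nuclei had separate intervals in STZ-HFHC 1 alone, so their order was not settled in the other libraries.

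No other named class came near these levels. Endothelial-like nuclei held 16.4 CPM of Gas6 in ND, and 25.9 and 20.4 in STZ-HFHC mice 1 and 2, or 2.08, 1.90 and 1.68 times the lymphocyte-like level, with a lower bound under 1 in STZ-HFHC 2 (0.992). Hepatocyte-like nuclei held 8.38, 12.6 and 8.76 CPM, and macrophage-like nuclei 8.41, 16.5 and 6.81 CPM, and the intervals of these overlapped with those of the lymphocyte-like nuclei in every library. Cluster 11 stayed unnamed, held no ND nuclei, 992 and 144 nuclei of STZ-HFHC mice 1 and 2, and had Areg and Nrg1 among its leading genes. Its Gas6 level was 31.3 and 33.5 CPM, which was 2.49 (1.98 to 3.14) and 3.83 (2.57 to 5.55) times the hepatocyte-like level of the same libraries.

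Because the classes differ in size, the class with the highest level of Gas6 did not hold most of its UMIs. Hepatocyte-like nuclei held 47.4% of all Gas6 UMIs in ND, and 9.78% and 20.7% in STZ-HFHC mice 1 and 2, at 63.8%, 11.1% and 21.9% of nuclei. Mesothelial-like nuclei held 2.19%, 12.8% and 4.11% of Gas6 UMIs at only 0.412%, 0.650% and 0.366% of nuclei. In STZ-HFHC 1, cluster 11 alone held 23.6% of the Gas6 UMIs. These shares depended on which nuclei were kept and named. With all barcodes, the hepatocyte-like share in ND was 27.0% and the stellate or fibroblast-like share 45.9%, against 16.7% before, and with each library clustered alone the hepatocyte-like share was 24.8% in ND, and 47.5% and 28.6% in STZ-HFHC mice 1 and 2. The unnamed clusters 2 and 11 carried hepatocyte markers at 97.9% and 62.0% of the hepatocyte-like level in STZ-HFHC 1 and at 82.7% and 50.8% in STZ-HFHC 2. Lymphocyte-like nuclei carried them at 66.1% and 78.5%, less than cluster 2 but more than cluster 11.

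Pros1, which encodes protein S, lies at chr16:62854307-62929346 on the plus strand. Its level differed little between most classes, and RNA of hepatocytes was present in all of them. The hepatocyte-like level, scaled by the hepatocyte markers of the class, came to 109 CPM for macrophage-like nuclei in ND. It came to 75.7 and 79.5 CPM in STZ-HFHC mice 1 and 2, where 122 and 112 CPM were counted, against 95.7 CPM in ND. How much of the Pros1 level of each class was RNA of hepatocytes was not tested. Endothelial-like nuclei held 110 CPM in ND, and 193 and 152 in STZ-HFHC mice 1 and 2, and hepatocyte-like nuclei 121, 154 and 121 CPM. Lymphocyte-like nuclei already held 86.9, 107 and 117 CPM, so that the endothelial-like level was 1.27 (1.03 to 1.58), 1.80 (1.44 to 2.27) and 1.29 (1.09 to 1.54) times the background. For hepatocyte-like nuclei these ratios were 1.40 (1.14 to 1.72), 1.44 (1.17 to 1.80) and 1.03 (0.881 to 1.21), and in STZ-HFHC 2 the interval included 1.

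Macrophage-like nuclei (95.7, 122 and 112 CPM) and stellate or fibroblast-like nuclei (99.8, 112 and 128 CPM) had intervals of the ratio to lymphocyte-like nuclei that included 1 in all 3 libraries. The lowest Pros1 level of any named class was in mesothelial-like nuclei, at 19.5 CPM (2 UMIs), 50.4 CPM and 83.0 CPM. Hepatocyte-like nuclei held 64.1% of the Pros1 UMIs in ND, and 21.5% and 30.4% in STZ-HFHC mice 1 and 2. With all barcodes the ND share was 38.7%, against 39.1% in stellate or fibroblast-like nuclei, and with each library clustered alone it was 34.5% in ND, and 61.2% and 48.4% in STZ-HFHC mice 1 and 2. Cluster 2, an unnamed cluster of 983 and 2240 STZ-HFHC nuclei and 1 ND nucleus, held 21.0% of Pros1 UMIs in STZ-HFHC 1 and about as many as the hepatocyte-like nuclei in STZ-HFHC 2 (2123 against 2150 UMIs).

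**Figure D1:**
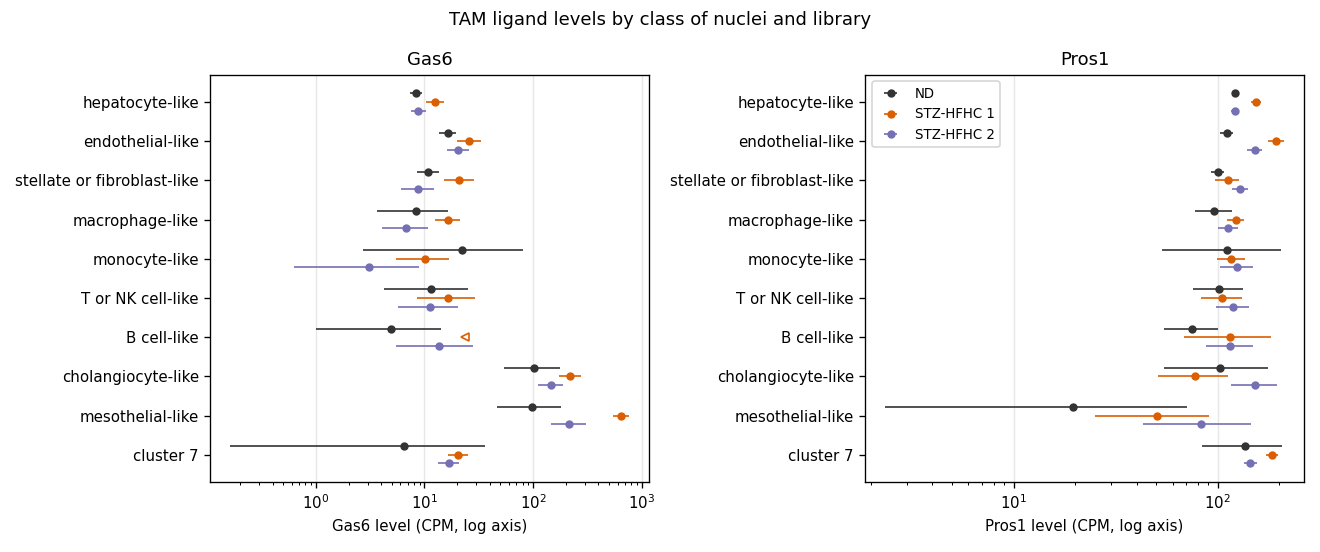
Levels of Gas6 (left) and Pros1 (right) in CPM on log axes, by class of nuclei (rows) and library (colours), with points for class sums, bars for exact Poisson 95% intervals and open triangles for the upper limit where no UMI was counted. Gas6 stood out in mesothelial-like and cholangiocyte-like nuclei of all 3 libraries, whereas Pros1 stayed between 74.7 and 193 CPM in every named class but mesothelial-like nuclei.

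Within the hepatocyte-like nuclei both ligands were highest in the most pericentral of 3 groups of each library. Hepatocytes near the central vein express other genes than those near the portal tract, so nuclei of each library were ranked by 7 pericentral against 7 periportal markers and divided into 3 groups of equal size. Pros1 was 80.6 CPM in the periportal, 110 in the middle and 189 in the pericentral group of ND, 107, 105 and 258 CPM in STZ-HFHC 1, and 94.9, 99.1 and 182 CPM in STZ-HFHC 2. The pericentral group was the highest in each library, with intervals of 179 to 199, 240 to 278 and 170 to 194 CPM that lay apart from those of the other groups.

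Gas6 was lower and its level went up from the periportal to the pericentral group of each library, at 6.47, 8.06 and 11.3 CPM in ND, and 9.23, 11.9 and 17.3 CPM and 4.83, 7.22 and 16.1 CPM in STZ-HFHC mice 1 and 2. Its pericentral and periportal intervals lay apart in ND (9.01 to 14.0 against 4.98 to 8.26) and in STZ-HFHC 2 (12.8 to 20.1 against 3.36 to 6.71), and overlapped in STZ-HFHC 1 (12.7 to 23.0 against 6.27 to 13.1). Over all hepatocyte-like nuclei, the Gas6 level overlapped the background in every library. The receptor Mertk, which was not above the background in these nuclei, also was higher in the pericentral group, with 109, 113 and 150 CPM in ND, and 96.8, 109 and 188 CPM and 80.7, 94.9 and 154 CPM in STZ-HFHC mice 1 and 2. Axl was likewise highest there, at 3.27, 11.1 and 7.58 CPM, with intervals that overlapped the periportal ones in ND and STZ-HFHC 2. A pericentral maximum was thus not particular to the ligands.

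The score was a range and not a type: 469 and 466 of 5420 ND nuclei lay within 0.2 of the 2 cuts, against 99 and 27 of 989 and 271 and 148 of 2395 in the STZ-HFHC libraries. It was the log2 ratio of raw marker UMIs with a constant added to both sums, so it depended on depth by construction. The pericentral group began at a score of -1.42 in ND, and -2.38 and -2.94 in STZ-HFHC mice 1 and 2. That group therefore also held nuclei with more periportal than pericentral marker UMIs. Median depth moved with the score, from 4642 UMIs in the periportal to 3428.5 in the pericentral group of ND. It went from 9275 to 6891 in STZ-HFHC 1 and from 8014 to 5404.5 in STZ-HFHC 2, and the part of depth in these levels was not tested.

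**Figure D2:**
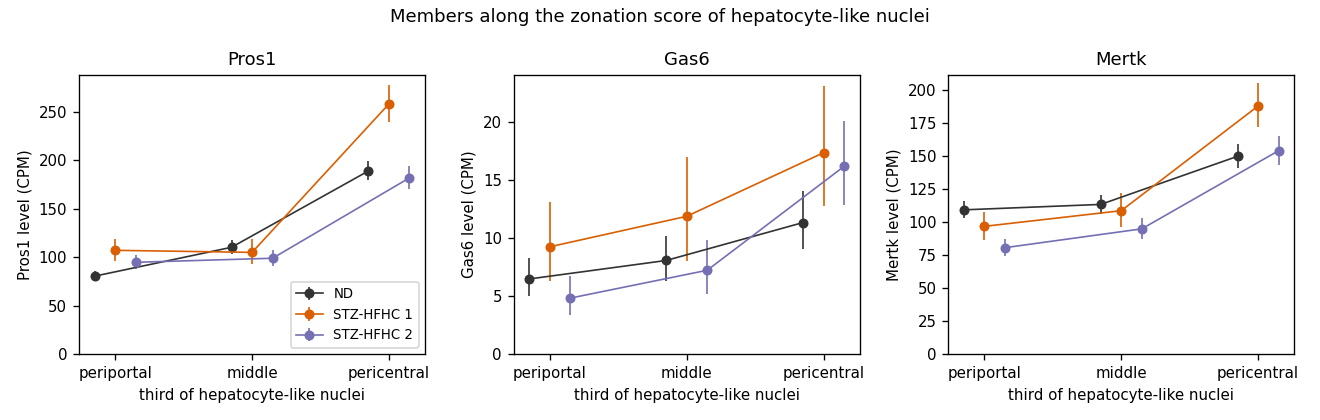
Levels of Pros1, Gas6 and Mertk in CPM in 3 equal groups of hepatocyte-like nuclei ranked from periportal to pericentral, with points for sums, bars for exact Poisson 95% intervals and colours for libraries. Pros1 in the pericentral group was 189 CPM in ND, and 258 and 182 in STZ-HFHC mice 1 and 2, above the other 2 groups of the same library.

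The receptor Mertk was highest in macrophage-like nuclei and in cluster 7. In macrophage-like nuclei it was 374 CPM in ND (356 UMIs, 336 to 415), and 1181 CPM (4224 UMIs, 1146 to 1217) and 948 CPM (2504 UMIs, 911 to 986) in STZ-HFHC mice 1 and 2. In cluster 7 it was 818, 865 and 730 CPM, with 39, 771 and 953 nuclei. In lymphocyte-like nuclei it was 133, 288 and 280.0 CPM, so the macrophage-like level was 2.81 (2.31 to 3.42), 4.11 (3.62 to 4.68) and 3.38 (3.05 to 3.76) times the background.

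The background itself was not small. In B cell-like nuclei alone, Mertk was 133, 299 and 207 CPM, and in T or NK cell-like nuclei 134, 285 and 319 CPM. Beyond the macrophages, only endothelial-like nuclei of the named classes lay above the background in all 3 libraries, at 284, 406 and 345 CPM and 2.13 (1.81 to 2.53), 1.41 (1.23 to 1.62) and 1.23 (1.10 to 1.38) times the lymphocyte-like level. Stellate or fibroblast-like nuclei did so in ND, at 226 CPM and 1.70 times, but not in the STZ-HFHC libraries, at 314 and 288 CPM and ratios of 1.09 (0.943 to 1.27) and 1.03 (0.918 to 1.15). Hepatocyte-like nuclei, at 122, 129 and 106 CPM, lay at or below it with ratios of 0.916, 0.449 and 0.378. The summed level of macrophage markers in endothelial-like nuclei was 515 CPM in ND, against 464 in lymphocyte-like nuclei. In STZ-HFHC mice 1 and 2 it was 512 and 525 CPM, against 797 and 753. With ND clustered alone, 582 nuclei formed a cluster with 13 of 14 endothelial and 9 of 16 macrophage markers raised. The part of mixed nuclei in the endothelial-like ratio of ND was not tested.

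By nuclei rather than UMIs, after every nucleus had been thinned to 1000 UMIs and shallower ones left out (55, 155 and 77 macrophage-like and 62, 102 and 102 lymphocyte-like nuclei), Mertk was found in 38.0% of 184 macrophage-like nuclei in ND, and 70.3% of 1199 and 61.6% of 820 in STZ-HFHC mice 1 and 2. In lymphocyte-like nuclei the shares were 12.9%, 27.3% and 23.8%. Without thinning they were 69.0%, 84.4% and 79.9% in macrophage-like and 35.6%, 38.4% and 38.8% in lymphocyte-like nuclei, whose median depths were 2236, 1785 and 1828 UMIs against 2342.5, 1315 and 1516.

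The holders of the Mertk UMIs differed between the groups, and so did the makeup of the captured nuclei. In ND, hepatocyte-like nuclei held 42.0%, endothelial-like 27.5% and stellate or fibroblast-like 21.1% of all Mertk UMIs, and macrophage-like nuclei 4.74% at 2.81% of nuclei. In STZ-HFHC 1 and 2, macrophage-like nuclei held 30.1% and 18.7%, cluster 7 held 25.9% and 26.2%, and hepatocyte-like nuclei 7.92% and 14.1%. With all barcodes, stellate or fibroblast-like nuclei held the largest share in ND, 49.0%, and hepatocyte-like nuclei 22.2%. With each library clustered alone, hepatocyte-like nuclei held 24.5% in ND, and 24.3% and 22.1% in STZ-HFHC mice 1 and 2. A share alone cannot tell fewer nuclei of a class from less RNA per nucleus. Per UMI, hepatocyte-like Mertk was 122 CPM in ND, and 129 and 106 in STZ-HFHC mice 1 and 2, in 5420, 989 and 2395 nuclei. Naming also entered these shares. The unnamed clusters 2 and 11 held 7.30% and 5.73% of Mertk UMIs in STZ-HFHC 1, and 12.9% and 0.643% in STZ-HFHC 2. Hepatocyte markers in these libraries were above the lymphocyte-like level in cluster 2 and below it in cluster 11.

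Axl, the receptor that prefers Gas6, was lower than Mertk and more restricted. Per kilobase of gene span, macrophage-like nuclei held 3.60, 11.4 and 9.12 CPM of Mertk and 1.27, 5.49 and 3.62 CPM of Axl. Its level there was 40.0 CPM in ND (38 UMIs, 28.3 to 54.8), and 172 CPM (617 UMIs, 159 to 187) and 114 CPM (301 UMIs, 101 to 128) in STZ-HFHC mice 1 and 2. Against 3.51 (4 UMIs), 33.0 (29 UMIs) and 23.6 CPM (35 UMIs) in lymphocyte-like nuclei, these were ratios of 11.4 (4.10 to 43.9), 5.23 (3.61 to 7.88) and 4.82 (3.39 to 7.06).

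Axl was also above the background in monocyte-like nuclei of both STZ-HFHC libraries, at 117 and 67.6 CPM, or 3.54 (2.38 to 5.46) and 2.86 (1.87 to 4.44) times. Only 1 UMI was counted in the 39 monocyte-like nuclei of ND. Cluster 7 held 57.9, 96.9 and 65.5 CPM. Stellate or fibroblast-like nuclei held 13.4, 43.3 and 37.4 CPM, and their ratio to the lymphocyte-like level excluded 1 in ND (1.45 to 14.3) and STZ-HFHC 2 (1.09 to 2.36) but not in STZ-HFHC 1 (0.853 to 2.08).

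Endothelial-like nuclei, with Mertk above the background, held Axl at 6.89, 16.6 and 16.2 CPM, and hepatocyte-like nuclei at 2.48, 7.32 and 5.90 CPM. The hepatocyte-like level of Axl was 0.707 (0.263 to 2.67), 0.222 (0.141 to 0.358) and 0.250 (0.169 to 0.377) times the lymphocyte-like one.

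Tyro3 (chr2:119797733-119818104, plus strand), the member known mainly from the nervous system, gave 6 UMIs in all nuclei of ND, and 9 and 17 in those of STZ-HFHC mice 1 and 2. No class of any library held more than 5 of them, and it was not detectable as a class level at this depth. It was tested over all nuclei only, where edgeR's quasi-likelihood test gave a log2 change of 0.65 (SE 0.75, adjusted p = 0.616). That test reports no standard error. SE here and below is the size of the log2 change divided by the square root of the test's F statistic.

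**Figure D3:**
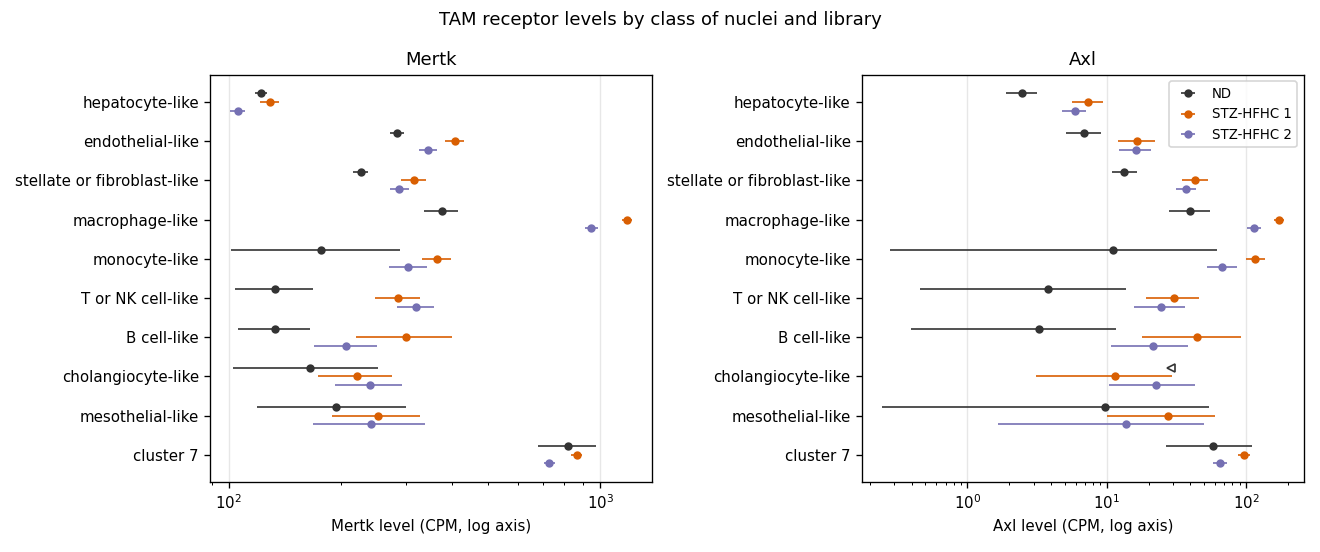
Levels of Mertk (left) and Axl (right) in CPM on log axes, by class of nuclei (rows) and library (colours), with points for class sums, bars for exact Poisson 95% intervals and an open triangle for the upper limit where no UMI was counted. Macrophage-like nuclei of both STZ-HFHC libraries lay to the right of ND for both receptors (1181 and 948 against 374 CPM for Mertk, 172 and 114 against 40.0 CPM for Axl), and so did the T or NK cell-like nuclei at lower levels.

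Macrophage-like nuclei were clustered once more without the 5 genes to see where the receptors lay within them. Subcluster 1 (630 and 278 nuclei of STZ-HFHC 1 and 2, led by Rtn1 and Gfra2) held Mertk at 1609 and 1628 CPM and Axl at 266 and 197 CPM. Subcluster 3 (350 and 128 nuclei) had the highest summed level of lipid-associated macrophage markers among subclusters with at least 20 nuclei in both STZ-HFHC libraries, 4850 and 4125 CPM against 642 and 583 CPM in subcluster 1, and held Mertk at 1465 and 1379 CPM and Axl at 144 and 112 CPM. Axl intervals of these subclusters lay apart in both libraries (239 to 295 against 120 to 172 CPM, and 163 to 235 against 77.7 to 157 CPM).

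Subcluster 2 (199 and 275 nuclei, with Ccr2 among its leading genes) held Mertk at 896 and 993 CPM, below both. Subcluster 4, of which 87.0% and 55.2% of nuclei were in the highest 8% of doublet scores, held it at 364 and 437 CPM. Subcluster 5 was made of 228 ND nuclei alone, was led by the hepatocyte genes Serpina1e and Bhmt, and held Mertk at 357 CPM and Axl at 34.2 CPM. ND and STZ-HFHC macrophage-like nuclei therefore shared no subcluster with 20 or more nuclei in both groups, and no test was made between subclusters of the same nuclei.

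Both receptors were seen in the same thinned nucleus in 7 of 184 macrophage-like nuclei in ND, and 164 of 1199 and 77 of 820 in STZ-HFHC mice 1 and 2. Axl was found in 10.0%, 19.5% and 15.2% of macrophage-like nuclei with a Mertk UMI and in 5.26%, 13.2% and 9.84% of those without one. In lymphocyte-like nuclei the same shares were 0% and 0.568% in ND, and 4.55% and 2.99% and 3.64% and 1.99% in STZ-HFHC mice 1 and 2. Nuclei of 1 library are not replicates, and these shares carry no test.

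Between the groups, Mertk and Axl were higher in STZ-HFHC in macrophage-like nuclei. The change of Axl was not shown to be larger in this class than in hepatocyte-like or endothelial-like nuclei. The model, edgeR's quasi-likelihood test with Benjamini-Hochberg adjustment over all genes, compared 1 ND mouse with 2 STZ-HFHC mice and had 1 residual degree of freedom, so the ND mouse was assumed to vary like the others. Mertk rose by a log2 change of 1.31 (SE 0.33, adjusted p = 0.0458) and Axl by 1.65 (SE 0.38, adjusted p = 0.0384), and both were higher in each STZ-HFHC mouse than in ND. In this class 9.26% of 11492 genes passed the threshold of an adjusted p of 0.05 in either direction and 4.53% in this direction, and 2 of the 4 members tested did. The calls over all genes were 521 higher and 543 lower, and 558 and 322 when library totals alone set the scale. Gas6 (log2 change 0.30, adjusted p = 0.828) and Pros1 (0.10, adjusted p = 0.845) did not pass.

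Both calls were close to the threshold. Both were kept by DESeq2, without the normalization factors and with all genes of at least 1 UMI. They were lost, with adjusted p from 0.0553 to 0.196, when only genes with at least 100 UMIs were tested, when all barcodes entered, without the nuclei of highest doublet scores, at a clustering resolution of 2, and after thinning to 1000 UMIs. Without 1 STZ-HFHC mouse, which leaves no test, the log2 change of Mertk was 1.16 to 1.46 and that of Axl 1.32 to 1.90.

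Axl also passed in stellate or fibroblast-like nuclei, the matrix-producing cells of the liver, by a log2 change of 1.54 (SE 0.33, adjusted p = 0.000323), where 27.7% of 13093 genes passed and 14.2% in this direction. Mertk there had a log2 change of 0.37 (SE 0.22, adjusted p = 0.226). Clustering each library alone ended the Axl call (log2 change 1.58, adjusted p = 0.0918).

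In T or NK cell-like nuclei, which are part of the background class, Mertk passed with a log2 change of 0.99 (SE 0.31, adjusted p = 0.0218) and Axl with 2.61 (SE 0.88, adjusted p = 0.0391), the latter on 2 UMIs in ND, and 22 and 24 in STZ-HFHC mice 1 and 2. In this class 13.1% of 8172 genes passed and 6.11% in this direction, 499 higher and 568 lower, or 712 and 403 when library totals alone set the scale. The Mertk call there was lost under 6 alternatives and the Axl call under 3. Macrophage marker RNA moved with the receptors in these nuclei, with a summed level of the 16 markers of 466 CPM in ND, and 793 and 831 in STZ-HFHC mice 1 and 2, and its part in these calls was not tested.

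For this reason the receptors were also set against the macrophage markers of the same nuclei. In lymphocyte-like nuclei, Mertk gave 28.7 UMIs per 100 marker UMIs in ND, and 36.1 and 37.2 in STZ-HFHC mice 1 and 2, and Axl 0.756, 4.14 and 3.14. On the same scale, Mertk in macrophage-like nuclei gave 26.6 UMIs (23.6 to 29.9) per 100 marker UMIs in ND, and 34.4 (33.3 to 35.7) and 40.8 (38.9 to 42.7) in STZ-HFHC mice 1 and 2. The markers themselves were at 1407 CPM in ND, and 3429 and 2324 in STZ-HFHC mice 1 and 2 in these nuclei. Axl gave 2.84 (2.00 to 3.92), 5.03 (4.63 to 5.46) and 4.90 (4.35 to 5.50). In cluster 7, Mertk gave 41.8, 45.6 and 50.2, and Axl 2.96, 5.11 and 4.51. Mertk went the other way in monocyte-like nuclei, with 25.4 (13.7 to 44.5) in ND, and 18.4 and 22 in STZ-HFHC mice 1 and 2. It did so too in cholangiocyte-like nuclei, with 42 (24.0 to 71.2), 37.7 and 36.8. Both ND intervals included the STZ-HFHC values. Hepatocyte-like nuclei gave 31.0, 36.3 and 26.3 for Mertk, and endothelial-like nuclei 55.2, 79.2 and 65.6. High values on this scale were thus not particular to macrophage-like nuclei.

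**Figure D4:**
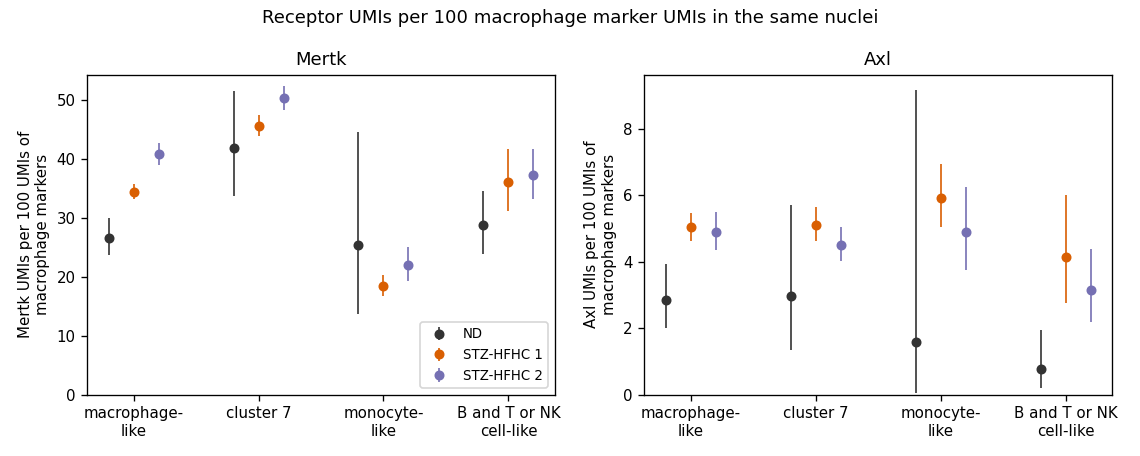
Mertk (left) and Axl (right) UMIs per 100 UMIs of 16 macrophage markers in the same nuclei, by class and library (colours), with points for the ratios and bars for exact 95% intervals of counting error. The ND points of macrophage-like nuclei, 26.6 for Mertk and 2.84 for Axl, lay below both STZ-HFHC points, and those of the B and T or NK cell-like nuclei did as well. For Mertk in monocyte-like nuclei the ND value, 25.4, lay above both STZ-HFHC values, 18.4 and 22.

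The change of Mertk in macrophage-like nuclei was larger than that in hepatocyte-like nuclei, by 1.42 on the log2 scale (SE 0.28, adjusted p = 0.00390) in a test of the class by group interaction with the library as a block, where 4.36% of genes passed. The change in endothelial-like nuclei was not shown to differ from that in hepatocyte-like nuclei (0.28, adjusted p = 0.560, 5.28% of genes passing). The macrophage-like change was also larger than that in endothelial-like nuclei, by 1.21 (SE 0.17, adjusted p = 1.66e-08), where 3.09% passed, although DESeq2 did not call this difference (1.04, adjusted p = 0.176). Mixed nuclei within the ND endothelial-like class were not told apart in these tests. For Axl, the macrophage-like change differed by 0.26 (SE 0.36, adjusted p = 0.777) from the hepatocyte-like one. It differed by 0.66 (SE 0.37, adjusted p = 0.483) from the endothelial-like one, so neither difference was shown. Against T or NK cell-like nuclei, a pair added after the first results had been seen, the difference was 0.38 for Mertk (SE 0.26, adjusted p = 0.810) and -0.95 for Axl (SE 0.95, adjusted p = 0.896), where 0.456% of genes passed. A larger change in macrophage-like than in T or NK cell-like nuclei was thus not shown for either receptor. Nor was it shown for Axl in stellate or fibroblast-like nuclei, where the difference from T or NK cell-like nuclei was -1.20 (SE 0.97, adjusted p = 0.761) and 1.42% of genes passed. For Mertk in endothelial-like against T or NK cell-like nuclei it was -0.85 (SE 0.25, adjusted p = 0.881), where 0.00751% passed.

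No member passed in the other classes. In endothelial-like nuclei, where 1.74% of genes passed (78 higher and 146 lower, or 331 and 244 when library totals alone set the scale), the log2 changes were 0.27 for Mertk (adjusted p = 0.591), 1.12 for Axl (0.163), 0.37 for Gas6 (0.580) and 0.51 for Pros1 (0.326). In hepatocyte-like nuclei, where 3.35% passed, they were -0.11 for Mertk (adjusted p = 0.794), 1.35 for Axl (0.144), 0.29 for Gas6 (0.673) and 0.13 for Pros1 (0.773). In cluster 7, tested after its markers had been seen and with 0.0242% of genes passing, Mertk differed by 0.01 (SE 0.29, adjusted p = 0.994) and Axl by 0.54 (SE 0.51, adjusted p = 0.699).

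The ligand in its 2 highest classes did not pass either. Gas6 in mesothelial-like nuclei was higher in both STZ-HFHC libraries (646 and 214 CPM) than in ND (97.3 CPM), with a log2 change of 2.02 (SE 0.73, adjusted p = 0.228), where 1.70% of 3474 genes passed; with all barcodes it did pass (1.86, adjusted p = 0.0240). Without STZ-HFHC 1 the log2 change was 0.94 and without STZ-HFHC 2 it was 2.58. In cholangiocyte-like nuclei it differed by 0.67 (SE 0.51, adjusted p = 0.647), where 0.701% passed. Axl in monocyte-like nuclei had the largest fitted log2 change of any member, 3.01 (SE 1.04, adjusted p = 0.211), with 1 UMI in ND, and 0.656% of genes passed in that class. In B cell-like nuclei, where 4.84% passed, Mertk had a log2 change of 0.74 (adjusted p = 0.309).

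Over all nuclei, where edgeR called 0% of 17916 genes (0 genes, with 4326 at an unadjusted p under 0.05, and 1827 called by DESeq2), the log2 changes were 2.02 for Axl (SE 0.43, adjusted p = 0.109), 0.63 for Gas6 (0.405), 0.45 for Mertk (0.292) and 0.01 for Pros1 (0.973). DESeq2 called Axl (adjusted p = 0.000117). Axl was 6.13 CPM in ND, and 36.6 and 21.1 in STZ-HFHC mice 1 and 2 in these sums, which also carry the makeup of the captured nuclei.

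**Figure D5:**
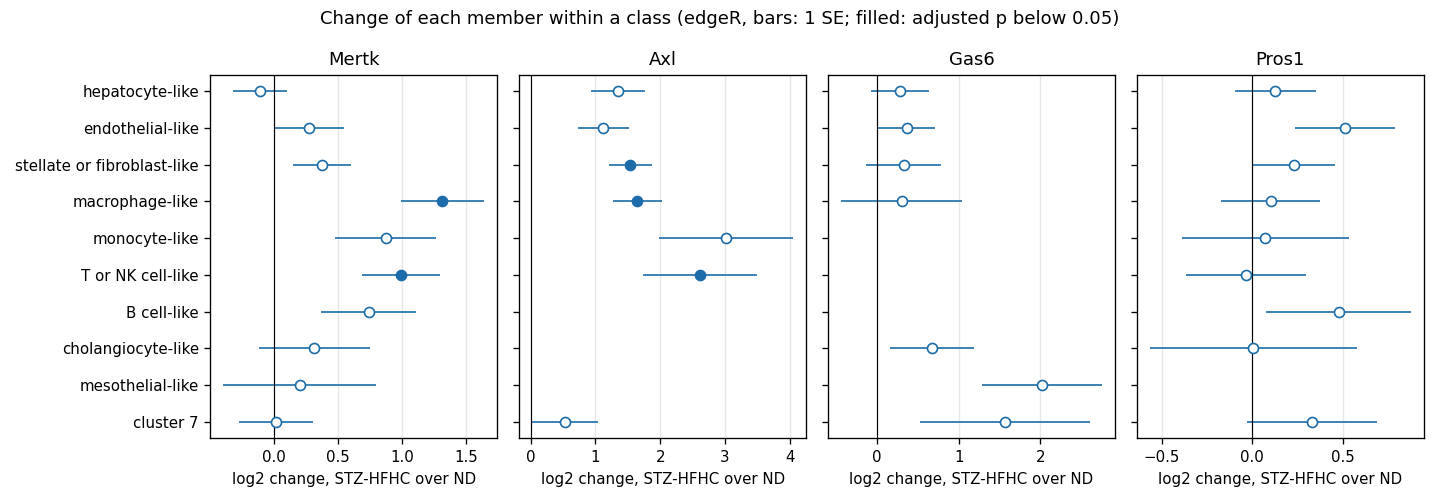
Log2 change of Mertk, Axl, Gas6 and Pros1, STZ-HFHC over ND, in each class where the gene was tested. Bars are 1 SE, derived from the F statistic of edgeR's quasi-likelihood test, and filled points mark an adjusted p below 0.05. Each panel has its own axis. Mertk passed in macrophage-like (1.31) and T or NK cell-like nuclei (0.99), Axl in these (1.65 and 2.61) and in stellate or fibroblast-like nuclei (1.54), and neither ligand passed in any class.

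The wider pathway was read from 48 other genes of phosphatidylserine recognition, receptor shedding, carboxylation, engulfment and sterol handling. In stellate or fibroblast-like nuclei 41 were tested, of which 18 were higher and 3 lower in STZ-HFHC (14.2% and 13.5% of all genes were), and their median log2 change was 0.57 against -0.01 over all genes. Of 17 phosphatidylserine receptors and bridging molecules, 9 rose, among them the bridging protein Mfge8 (log2 change 1.26), its integrin partners Itgav (0.72) and Itgb3 (1.83), the phosphatidylserine receptors Havcr2 (3.17) and Cd300lb (2.05), Cd300a, Cd300lf, the complement chain C1qb and the scavenger receptor Cd36 (3.15). Lrp1, Scarb1 and Stab2 fell, by 0.83, 0.84 and 0.97 on the log2 scale.

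Further down that pathway, Elmo1 (1.48), Gulp1 (1.68), Pik3r1 (0.80) and Ptk2 (0.69) rose among the engulfment and signaling genes in stellate or fibroblast-like nuclei, and none of that list fell. The scramblase Ano6 rose (1.73), as did 3 of 6 genes of sterol handling, the exporters Abca1 (0.80) and Abcg1 (1.94) and the nuclear receptor Pparg (0.86). None of 2 receptor sheddases, Adam10 and Adam17, and none of 3 carboxylation genes passed. Several of these genes are known from macrophages rather than stellate cells, C1qb and the Cd300 genes among them, and their part in free macrophage RNA was not tested.

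In hepatocyte-like nuclei 42 of the 48 were tested and 3 rose, Cd36 (3.09, adjusted p = 0.0140), Elmo1 (1.88, adjusted p = 0.0200) and Ano6 (1.46, adjusted p = 0.0426), with a median of 0.44 against -0.01 over all genes, of which 1.55% were called higher. In macrophage-like nuclei 10 of 38 rose and none fell, where 4.53% of all 11492 genes were called higher and 543 genes lower, with a median of 0.86 against 0.02 over all genes. The summed level of the 16 macrophage markers in this class was 1407 CPM in ND, and 3429 and 2324 in STZ-HFHC mice 1 and 2. The part of that general rise in the 10 calls was not tested. At a clustering resolution of 2 no gene of any kind was called in this class (0 genes by edgeR, with 2781 at an unadjusted p under 0.05), so these calls were lost there. They are named here although the rule for named genes did not pick this class: Cd36, Abcg1, Cd300lb, Cd300lf, Pparg, Ano6, C1qb, Elmo1, Stab1 and Abca1, with log2 changes from 1.51 for Abca1 to 4.74 for Cd36. Cd36, Ano6, Elmo1, Cd300lb, Abca1 and Abcg1, with Stab2 and Timd4, made up the 8 of 32 that rose in T or NK cell-like nuclei, where 1, Lrp1, fell (6.11% of all genes were called higher and 6.95% lower there). After thinning, edgeR called 0 genes higher in that class, with 678 at an unadjusted p under 0.05 in either direction, so the 8 calls were lost. In endothelial-like nuclei 1 of 40 rose (Cd36, against 0.607% of all genes), in monocyte-like nuclei 1 of 36 (Cd36, against 0.117%), in B cell-like nuclei 3 of 27 (Cd36, Elmo1 and Abcg1, against 1.84%), and none passed of 25 in cholangiocyte-like nuclei, 20 in mesothelial-like nuclei, 40 in cluster 7 and 45 over all nuclei. The other reported TAM ligands, Tub and Tulp1, had too few UMIs for a test in any class.

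Over 39 sums of a class and library, the genes whose log2(CPM + 1) followed a member most closely were listed as a description. For Mertk they were Ptprm (Pearson's r = 0.919), Tmcc3 (0.914) and Myo9a (0.905), and for Axl Cd300lb (0.908), Tnfrsf11a (0.906) and Kcnk13 (0.905). For Gas6 they were Arhgap44 (0.886), Arhgef28 (0.864) and Cav1 (0.850), and for Pros1 Thsd1 (0.807), Ncapd3 (0.797) and Ercc8 (0.796). The sums of 1 library share its depth and free RNA and are not independent points.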

How the data were processed

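Nuclei of frozen mouse liver had been sequenced with a 10x Chromium 3′ kit, and the authors deposited a matrix of UMI counts (genes by barcodes) for each of 3 libraries. Per the labels, Cell Ranger 7.0.1 and the mm10 build were used; whether intronic reads were counted is not given in the sources used here. The total of 30989 deposited barcodes equals the number of nuclei that the study gives after its filters, yet limits of 200 to 5000 genes and at most 5% mitochondrial counts left 28336 here (889, 914 and 612 barcodes had more than 5000 genes), with 42715797, 44350401 and 55632923 UMIs. Scrublet's automatic limit marked 1, 0 and 0 nuclei and was not used; the highest 8% of scores were left out in an alternative.

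Kept nuclei were clustered in Scanpy 1.11.5 (2000 variable genes, 30 principal components, 15 neighbors, Leiden resolution 1, no batch correction, the 5 genes left out), and 20345 nuclei in clusters with raised markers (2-fold, in at least 5% of nuclei, at least 3 markers) were named. The naming rule was revised once after the clusters had been seen. UMIs were summed per class and library. Sums with at least 30 UMIs per gene over the libraries were tested with edgeR 4.0.16 (quasi-likelihood, Benjamini-Hochberg adjustment over all genes, R 4.3.3), with a class by group interaction and the library as block between classes. Exact intervals were at 95%, Poisson for levels and binomial for shares and ratios, and cover counting error only. Genes of the pathway lists were named where they passed in hepatocyte-like or stellate or fibroblast-like nuclei, except for an item that is not reported here, and the genes most like a member were the 3 with the highest Pearson's r among genes with at least 100 UMIs. The test within a class was tried on simulated sums of hepatocyte-like, endothelial-like, macrophage-like and stellate or fibroblast-like nuclei, with log2 changes of 2 and 3. Smaller changes, such as those called for Mertk, and the test between classes were not simulated. Alternatives were DESeq2 1.42.0, library totals without normalization factors, minimum counts of 1 and 100, all barcodes, thinning to 1000 UMIs, resolutions of 0.5 and 2, markers at 3-fold, each library clustered alone, and leaving out each STZ-HFHC mouse. The cluster 7 test, the tests against T or NK cell-like nuclei, the lymphocyte-like background and the scale per macrophage marker were chosen after seeing the data. The members and lists were chosen with earlier results of these data known. Promoters came from RefSeq tables of GRCm38.p6 and positions from GENCODE annotation of GRCm38.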

Additional observations from a re-analysis of the deposited data

Results flagged for a closer look

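A pair of results was picked out because the change between STZ-HFHC and ND differed between classes of nuclei by a test of the difference itself. The log2 change of Mertk was larger by 1.42 in macrophage-like than in hepatocyte-like nuclei (adjusted p = 0.00390, edgeR's quasi-likelihood test). It was larger by 1.21 in macrophage-like than in endothelial-like nuclei (adjusted p = 1.66e-08), a difference that DESeq2 did not call (1.04, adjusted p = 0.176).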

How the results depend on the processing

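The test had 1 residual degree of freedom, the ND group was 1 mouse, and depth left classes of under 50 nuclei with few UMIs of any member, so a value that missed the threshold does not show that the groups were alike. No paired analysis was possible because the groups were 1 ND mouse and 2 other mice, with nothing in the labels that pairs them. Library totals alone moved the median log2 change of all genes from 0.02 to 0.21 in macrophage-like, from 0.01 to 0.20 in T or NK cell-like and from -0.01 to 0.12 in endothelial-like nuclei, and from -0.01 to 0.20 over all nuclei. Macrophage-like nuclei gave no value at resolution 0.5, with each library clustered alone or with markers counted at 3-fold, since no class of that name reached 20 nuclei in every library. Unless a value or the construction of the alternative shows it, the cause of each change was not tested. Leaving out either STZ-HFHC mouse, a value with no test, gave log2 changes of 1.16 to 1.46 for Mertk and 1.32 to 1.90 for Axl in macrophage-like, 1.42 to 1.65 for Axl in stellate or fibroblast-like, and 0.89 to 1.08 for Mertk and 2.35 to 2.62 for Axl in T or NK cell-like nuclei. For Gas6 it gave 0.94 to 2.58 in mesothelial-like, -0.48 to 0.76 in macrophage-like and -0.35 to 0.91 in stellate or fibroblast-like nuclei. Beside the 163 main values counted next, 87 moved by more and 21 lost their call. Leaving out 1 of 2 mice cannot move their mean by more than their SD. Where that SD was the spread, such a value therefore tests nothing, yet the 163 include such values. Each of the 163 is a result under 1 alternative, so a result can be counted more than once. Counts of called genes have no such spread, and are listed below only where they changed by a larger factor. Of the results compared, 163 main values under an alternative kept their direction and side of the threshold or moved by less than the spread, and 9 values of single genes passed only under an alternative: Axl over all nuclei with DESeq2 (2.03, adjusted p = 0.000117) and with at least 1 UMI (2.02, adjusted p = 0.000513), Axl in endothelial-like nuclei with each library clustered alone (2.46, adjusted p = 0.0310), Gas6 in mesothelial-like nuclei with all barcodes (1.86, adjusted p = 0.0240), Axl in monocyte-like nuclei with at least 1 UMI (3.29, adjusted p = 0.0398) and without the highest doublet scores (3.19, adjusted p = 0.0180), Mertk in stellate or fibroblast-like nuclei without the highest doublet scores (0.52, adjusted p = 0.0460) and at resolution 2 (0.54, adjusted p = 0.0368), and the difference of Mertk between stellate or fibroblast-like and T or NK cell-like nuclei with library totals alone (-0.78, adjusted p = 0.0359).

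The mean level of Mertk over the STZ-HFHC mice in macrophage-like nuclei, 1064 CPM, was 1360.0 CPM without the highest doublet scores and 1287 CPM after thinning. The mean level of Axl over the STZ-HFHC mice in macrophage-like nuclei, 143 CPM, was 185 CPM without the highest doublet scores. The mean level of Pros1 over the STZ-HFHC mice in hepatocyte-like nuclei, 137 CPM, was 104 CPM with all barcodes. The mean share of the UMIs of Mertk over the STZ-HFHC mice in macrophage-like nuclei, 24.4%, was 34.6% after thinning. The mean share of the UMIs of Gas6 over the STZ-HFHC mice in hepatocyte-like nuclei, 15.2%, was 38.0% with each library clustered alone. The mean share of the UMIs of Pros1 over the STZ-HFHC mice in hepatocyte-like nuclei, 25.9%, was 15.5% with all barcodes, 54.8% with each library clustered alone, 35.4% at resolution 2 and 17.0% after thinning. The call of Mertk in T or NK cell-like nuclei was lost with DESeq2 (log2 value 0.99, adjusted p = 0.373), with at least 100 UMIs (log2 value 1.00, adjusted p = 0.0926), with all barcodes (log2 value 0.73, adjusted p = 0.144), without the highest doublet scores (log2 value 1.04, adjusted p = 0.0642), at resolution 0.5 (log2 value 1.00, adjusted p = 0.0617) and after thinning (log2 value 1.10, adjusted p = 0.255). The call of Axl in T or NK cell-like nuclei was lost with at least 1 UMI (log2 value 2.65, adjusted p = 0.0626), without the highest doublet scores (log2 value 2.55, adjusted p = 0.0837) and at resolution 0.5 (log2 value 2.49, adjusted p = 0.107). The call of Mertk in macrophage-like nuclei was lost with at least 100 UMIs (log2 value 1.31, adjusted p = 0.0594), with all barcodes (log2 value 1.33, adjusted p = 0.0733), without the highest doublet scores (log2 value 1.65, adjusted p = 0.0803), at resolution 2 (log2 value 1.37, adjusted p = 0.110) and after thinning (log2 value 1.12, adjusted p = 0.0705). The call of Axl in macrophage-like nuclei was lost with at least 100 UMIs (log2 value 1.64, adjusted p = 0.0553), with all barcodes (log2 value 1.70, adjusted p = 0.0779), without the highest doublet scores (log2 value 1.96, adjusted p = 0.0585), at resolution 2 (log2 value 1.70, adjusted p = 0.0942) and after thinning (log2 value 1.05, adjusted p = 0.196). The call of Axl in stellate or fibroblast-like nuclei was lost with each library clustered alone (log2 value 1.58, adjusted p = 0.0918). The call of Mertk in macrophage-like over endothelial-like nuclei was lost with DESeq2 (log2 value 1.04, adjusted p = 0.176).

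Against 305 genes called in B cell-like nuclei, there were 50 with DESeq2, 590 with all barcodes, 675 without the highest doublet scores, 192 at resolution 0.5, 832 at resolution 2 and 159 after thinning. Against 1067 genes called in T or NK cell-like nuclei, there were 150 with DESeq2, 160 with at least 100 UMIs, 471 with all barcodes, 605 without the highest doublet scores, 516 at resolution 0.5 and 12 after thinning. Against 0 genes called over all nuclei, there were 229 with library totals alone, 1827 with DESeq2 and 2709 with at least 1 UMI. Against 37 genes called in cholangiocyte-like nuclei, there were 195 with at least 1 UMI, 259 with all barcodes, 213 without the highest doublet scores and 248 at resolution 2. Against 3 genes called in cluster 7, there were 35 with DESeq2, 171 with at least 1 UMI, 1 with at least 100 UMIs and 1 after thinning. Against 224 genes called in endothelial-like nuclei, there were 575 with library totals alone, 600 with DESeq2, 2063 with at least 1 UMI, 676 with all barcodes, 498 at resolution 2, 758 with each library clustered alone and 1499 after thinning. Against 495 genes called in hepatocyte-like nuclei, there were 825 with DESeq2, 2258 with at least 1 UMI, 169 with at least 100 UMIs, 823 with all barcodes, 293 at resolution 2, 3 with each library clustered alone, 953 after thinning and 293 with clusters 2 and 11 added. Against 1064 genes called in macrophage-like nuclei, there were 2225 with at least 1 UMI, 635 with at least 100 UMIs, 168 with all barcodes, 483 without the highest doublet scores, 0 at resolution 2 and 404 after thinning. Against 59 genes called in mesothelial-like nuclei, there were 7 with DESeq2, 32 with at least 1 UMI, 0 with at least 100 UMIs, 160 with all barcodes and 13 after thinning. Against 56 genes called in monocyte-like nuclei, there were 12 with library totals alone, 37 with DESeq2, 318 with at least 1 UMI, 189 with at least 100 UMIs, 23 with all barcodes, 518 without the highest doublet scores, 0 at resolution 0.5, 114 at resolution 2 and 32 after thinning. Against 3624 genes called in stellate or fibroblast-like nuclei, there were 1486 with DESeq2, 681 with each library clustered alone and 1986 after thinning. Against 824 genes called for the difference endothelial minus hepatocyte, there were 487 with library totals alone, 149 with at least 100 UMIs and 78 with DESeq2. Against 671 genes called for the difference macrophage minus hepatocyte, there were 1065 with at least 100 UMIs and 182 with DESeq2. Against 432 genes called for the difference macrophage minus endothelial, there were 249 with library totals alone, 143 with at least 100 UMIs and 7 with DESeq2. Against 56 genes called for the difference macrophage minus T or NK cell, there were 33 with library totals alone and 0 with DESeq2. Against 193 genes called for the difference stellate or fibroblast minus T or NK cell, there were 304 with library totals alone and 31 with DESeq2. Against 1 gene called for the difference endothelial minus T or NK cell, there were 11 with library totals alone, 32 with at least 1 UMI and 0 with DESeq2.

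Some changes that were not called took the other sign. For Pros1 in T or NK cell-like nuclei, -0.035 on the log2 scale, the value was 0.16 with library totals alone, 0.0050 with at least 1 UMI, 0.069 with all barcodes, 0.019 without the highest doublet scores and 1.36 after thinning. For Mertk in cholangiocyte-like nuclei, 0.31 on the log2 scale, the value was -0.34 after thinning. For Pros1 in cholangiocyte-like nuclei, 0.0064 on the log2 scale, the value was -0.025 with DESeq2, -0.0054 with at least 100 UMIs, -0.0064 at resolution 0.5 and -0.17 at resolution 2. For Mertk in cluster 7, 0.014 on the log2 scale, the value was -0.040 with library totals alone and -0.079 with at least 100 UMIs. For Pros1 in cluster 7, 0.33 on the log2 scale, the value was -0.30 after thinning. For Gas6 in hepatocyte-like nuclei, 0.29 on the log2 scale, the value was -0.20 with all barcodes. For Pros1 in hepatocyte-like nuclei, 0.13 on the log2 scale, the value was -0.23 with all barcodes. For Pros1 in monocyte-like nuclei, 0.072 on the log2 scale, the value was -0.060 with at least 100 UMIs, -0.26 with all barcodes and -0.046 after thinning. For Gas6 in stellate or fibroblast-like nuclei, 0.33 on the log2 scale, the value was -0.16 at resolution 2 and -0.78 after thinning. For Gas6 (endothelial minus hepatocyte), -0.0071 on the log2 scale, the value was 0.17 with library totals alone, 0.029 with at least 100 UMIs and 0.15 with DESeq2. For Gas6 (macrophage minus hepatocyte), -0.045 on the log2 scale, the value was 0.10 with library totals alone. For Pros1 (macrophage minus hepatocyte), -0.022 on the log2 scale, the value was 0.12 with library totals alone and 0.077 with DESeq2. For Gas6 (macrophage minus endothelial), 0.069 on the log2 scale, the value was -0.037 with library totals alone and, with no adjusted p, -0.18 with DESeq2.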
